A study of Mus musculus with 106 samples.

Results

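The liver transcriptome of A/J mice kept on chow was compared with that of the other 8 inbred strains of the study on the same diet. The samples were chosen by label: all 6 libraries of A/J mice on the chow diet (CD), 3 from females and 3 from males, out of 106 libraries in the whole series. Against them stood 47 CD libraries of 129S1/SvImJ, C57BL/6J, DBA/2J, NOD/ShiLtJ, NZO/HlLtJ, CAST/EiJ, PWK/PhJ and WSB/EiJ, with 3 mice of each sex per strain except 2 for 129S1/SvImJ females. One 129S1/SvImJ female CD library was left out because its sex-linked genes went against its label: Xist, the RNA of the inactive X chromosome, was at 0.923 CPM against 186 to 394 in the other females, and the Y-linked Ddx3y at 60.4 against at most 0.363. The mice were of both sexes, received no treatment but the diet, and were killed at 21 weeks of age. Diets had started at 8 weeks, and the CD energy came to 74% from carbohydrate, to 20% from protein and to 6% from fat. The other arm of the study, a high-fat diet (HFD) with 60% of the energy from fat and 20% each from carbohydrate and protein, was used here only to look at the same A/J difference in other mice. Every library is 1 mouse, so the replicates of a strain are separate animals of 1 inbred genotype. Strains entered the study in staggered cohorts, which the labels do not assign to libraries, so the A/J genotype and the A/J cohort cannot be told apart.

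A/J is a long-established laboratory strain, used as a model that gains little weight on fatty diets and known to carry a disrupted dysferlin gene and a loss-of-function allele of complement component C5. CAST/EiJ, PWK/PhJ and WSB/EiJ descend from wild mice and differ from the laboratory strains at far more sites of the genome. The liver burns fatty acids in its mitochondria and peroxisomes under the control of the nuclear receptor PPARα, clears ammonia through the urea cycle, secretes most plasma proteins and detoxifies foreign compounds with cytochromes P450 and conjugating enzymes. Liver tissue also holds Kupffer cells, which are its resident macrophages, as well as lymphocytes, endothelial cells and stellate cells. In bulk tissue, fewer cells of a type and less RNA per cell cannot be told apart.

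The A/J libraries held between 44717584 and 57480005 reads assigned to genes, and the others between 38773478 and 63341708. Reads that aligned to more than 1 place made up 13.4% to 16.8% of the A/J libraries and 14.7% to 26.5% of the others. The 10 most counted genes took 22.2% to 24.8% of the counts in A/J and 14.7% to 23.9% elsewhere, and albumin alone, the main plasma protein, reached 132200 ± 14230 CPM (counts scaled to a common library size, SD, n = 6) in A/J against 80410 ± 9087 (SD over 8 strain means). The 15 measured hepatocyte markers summed to between 172900 and 201000 CPM in A/J females, overlapping the 115100 to 184900 of other females, and to between 179600 and 220300 in A/J males, above the 91690 to 163200 of all other males, and no marker of that list was at 0 in A/J. Levels below are CPM after scaling by trimmed mean of M values (TMM), given per mouse or as the mean and SD over the 6 A/J mice and over the 8 strain means. They are not divided by gene length, so levels are compared between strains and not between genes.

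Of 14330 genes, 5795 (40.4%) differed between A/J and the mean of the other 8 strains at an adjusted p under 0.05 (edgeR's quasi-likelihood test, Benjamini-Hochberg adjustment over all genes). A/J was higher for 2948 genes (20.6%) and lower for 2847 (19.9%), and such a gene is called higher or lower below. The median log2 fold change of all genes was -0.01, and the median size of the called differences was 0.51 on the log2 scale, with 1253 genes at 1 or more. Scaling to library totals without TMM moved the median of all genes to -0.12 and the split to 2102 higher of 6315 called (33.3%, against 50.9% with TMM), so the directions below are relative to the bulk of genes. The fold change is an average of log2 group means, which gives each strain and sex the same weight, so a gene can be higher on this scale while a few strains have larger CPM. These p-values set the difference against the spread between mice within a strain. With the strain as the unit, where the spread is that between 8 strains, limma called 1 gene, Ube2u, at an adjusted p of 0.0264, and 315 genes at an unadjusted p under 0.05, which edgeR over mice gave for 6864 (47.9%).

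By strain means, A/J was the highest of all 9 strains for 1186 called genes (8.28% of those tested) and the lowest for 1182 (8.25%). The root mean square difference in log2 level from A/J was 0.729 for NOD/ShiLtJ, 0.751 for DBA/2J, 0.787 for 129S1/SvImJ, 0.819 for C57BL/6J and 0.821 for NZO/HlLtJ. It was larger for the wild-derived strains, at 1.09 for WSB/EiJ, 1.28 for PWK/PhJ and 1.36 for CAST/EiJ.

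A stricter description asks in which genes A/J stood outside all other mice. A gene is set apart here when it was called and, in each sex, all 3 A/J libraries lay above, or all 3 below, every library of that sex from the other strains. This held for 83 genes (0.579% of those tested), of which 39 (0.272%) were higher and 44 (0.307%) lower in A/J. Without TMM, the scaling of library sizes, 81 genes were set apart, 21 of them higher, and 58 of these 81 were among the 83. By the same rule 44 genes were set apart in 129S1/SvImJ, 53 in DBA/2J, 61 in NOD/ShiLtJ, 102 in C57BL/6J and 172 in NZO/HlLtJ, and 242 in WSB/EiJ, 527 in PWK/PhJ and 625 in CAST/EiJ. Of the 83 genes, 77 are annotated as protein coding, 47 differed by 1 or more on the log2 scale, and none lay on the X chromosome. For 39 of them another annotated gene lies on the opposite strand. Whether the counting used strand is not given in the sources used here, so reads of such pairs cannot be told apart.

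Among the set-apart genes higher in A/J, Slc28a1, which encodes a sodium-coupled pyrimidine nucleoside transporter, had the largest difference. Its levels were 18.1, 18.1 and 23.1 CPM in the A/J females and 18.8, 18.6 and 28.7 in the A/J males. No other female exceeded 1.07 CPM and no other male 0.667, so the gene was low in every strain but A/J. The fitted difference was 67.6-fold (log2 6.08 ± 0.18, SE; adjusted p = 9.55e-28, edgeR). The gene lies at chr7:81114799-81170416 on GRCm38 (GENCODE M21, matched by gene identifier), where Ndufs6b is annotated on the opposite strand. The highest of the other strain means was that of CAST/EiJ, and the 8 means were 0.349 ± 0.137 CPM.

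Cyp4a32, a member of the CYP4A family of fatty acid omega-hydroxylases, was at 652, 854 and 720 CPM in A/J females and 1636, 1463 and 1375 in A/J males. Other females ranged from 10.3 to 625 CPM around a median of 75.7, and other males from 26.5 to 1191 around 247. All A/J mice were thus above all others of their sex, CAST/EiJ and DBA/2J had the next strain means, and the 8 means spread widely (297.5 ± 313.5). The fold change was 2.85 ± 0.11 (log2, SE; adjusted p = 4.51e-24, edgeR).

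Glo1 encodes glyoxalase I, which removes methylglyoxal, a reactive by-product of glycolysis, and is known to vary in copy number among mouse strains. It was tightly held in A/J at 695, 731 and 662 CPM in females and 695, 706 and 685 in males. Other strains covered 44.6 to 378 CPM in females and 76.2 to 658 in males, so the highest other male came close to the lowest A/J male without reaching it. The fitted difference was 3.01-fold (log2 1.59 ± 0.09, adjusted p = 1.19e-17, edgeR). The neighbouring Btbd9, an adaptor for ubiquitin ligases, was also set apart, at 34.2 ± 2.28 CPM in A/J against 19.4 ± 3.26 (log2 0.84).

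Cyp2a22, a P450 and also set apart, stood at 312 to 406 CPM in A/J females and 68.1 to 131 in A/J males, against at most 295 and 60.95 in the other strains (log2 3.59). Hsd17b6, which oxidizes and epimerizes steroids and retinoids, was at 666 ± 81.4 CPM in A/J and 224 ± 110 elsewhere (log2 1.80). Abcd2, a transporter of very long-chain acyl groups into peroxisomes, was at 131 to 179 CPM in A/J females and 38.7 to 59.2 in A/J males. The highest other male was at 38.67 CPM and the lowest A/J male at 38.68, and the fold change was 1.68 ± 0.25 (log2, SE).

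Elovl2, which elongates polyunsaturated fatty acids, had 1373 ± 151 CPM in A/J and 730 ± 211 elsewhere (log2 0.98), and every A/J mouse was above every other mouse of its sex. Abcc3, an export pump for bile acid and drug conjugates on the blood-facing membrane, was at 867 ± 70.5 against 414 ± 127 CPM (log2 1.15). Gbp4, an interferon-induced guanylate-binding protein, had a log2 fold change of 2.79 and is described with its family below. Sgip1, Amer2 and Rasgrp1 were set apart at low levels, with A/J means of 1.501, 1.44 and 2.49 CPM and log2 fold changes of 2.25, 1.75 and 1.39. They encode an endocytic adaptor, a membrane anchor for the APC protein and a Ras activator.

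On the lower side, Ren1, the gene of renin, which cleaves angiotensinogen, was nearly silent in A/J liver. Its A/J levels were 0.124, 0.0948 and 0.107 CPM in females and 0, 0.198 and 0.0851 in males. Other females ranged from 0.617 to 139.6 CPM and other males from 0.231 to 39.0, with PWK/PhJ and 129S1/SvImJ highest and C57BL/6J nearest to A/J. The fitted difference was -5.77 ± 0.51 (log2, SE; adjusted p = 2.79e-12, edgeR). Some mouse strains carry a near-identical second renin gene, and reads from such a copy cannot be told apart in these counts.

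Rsph3b, which encodes a radial spoke protein of cilia, was at 0.619, 0.498 and 0.5165 CPM in A/J females and 0.519, 0.336 and 0.277 in A/J males. The lowest other female had 1.40 CPM and the lowest other male 1.24, and the 8 strain means were 5.96 ± 3.19, so the gene was low in A/J and varied widely elsewhere. The difference was 10.9-fold (log2 -3.44 ± 0.13, adjusted p = 3.975e-24, edgeR). Gm49719 is annotated on the opposite strand.

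Iah1, an esterase gene, was at 33.1, 25.1 and 24.8 CPM in A/J females and 21.9, 17.8 and 20.5 in A/J males, below the 58.9 to 116 and 38.3 to 142 CPM of the others (log2 -1.71 ± 0.11). It overlaps Adam17 on the opposite strand. Both neighbours on the same 83.0 kb of chromosome 12, chr12:21240825-21323819 on GRCm38, were also set apart and lower. These, whose spans overlap on opposite strands, were Cpsf3, a subunit of the nuclear pre-mRNA cleavage complex (log2 -0.39), and Itgb1bp1, which binds integrin β1 tails (log2 -0.73). In all, 5 genes in that stretch were tested.

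The remaining named genes on the lower side were set apart with fold changes between -2.84 and -1.85 on the log2 scale. The chemokine gene Ccl27a, which overlaps Il11ra1 on the opposite strand, had 0.491 ± 0.280 CPM in A/J and 3.46 ± 1.58 elsewhere. Mbnl2, a regulator of splicing, had 11.4 ± 1.57 and 43.9 ± 14.3 CPM. P2ry2, a receptor for extracellular ATP and UTP, had 4.31 ± 1.07 and 17.9 ± 10.4 CPM. Scarf1, a scavenger receptor of endothelium, had 3.80 ± 0.50 and 14.3 ± 3.63 CPM, while Spata24 and Zbed5 had 0.525 ± 0.143 and 1.38 ± 0.23 CPM in A/J against 2.81 ± 1.08 and 5.69 ± 3.00.

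**Figure D1:**
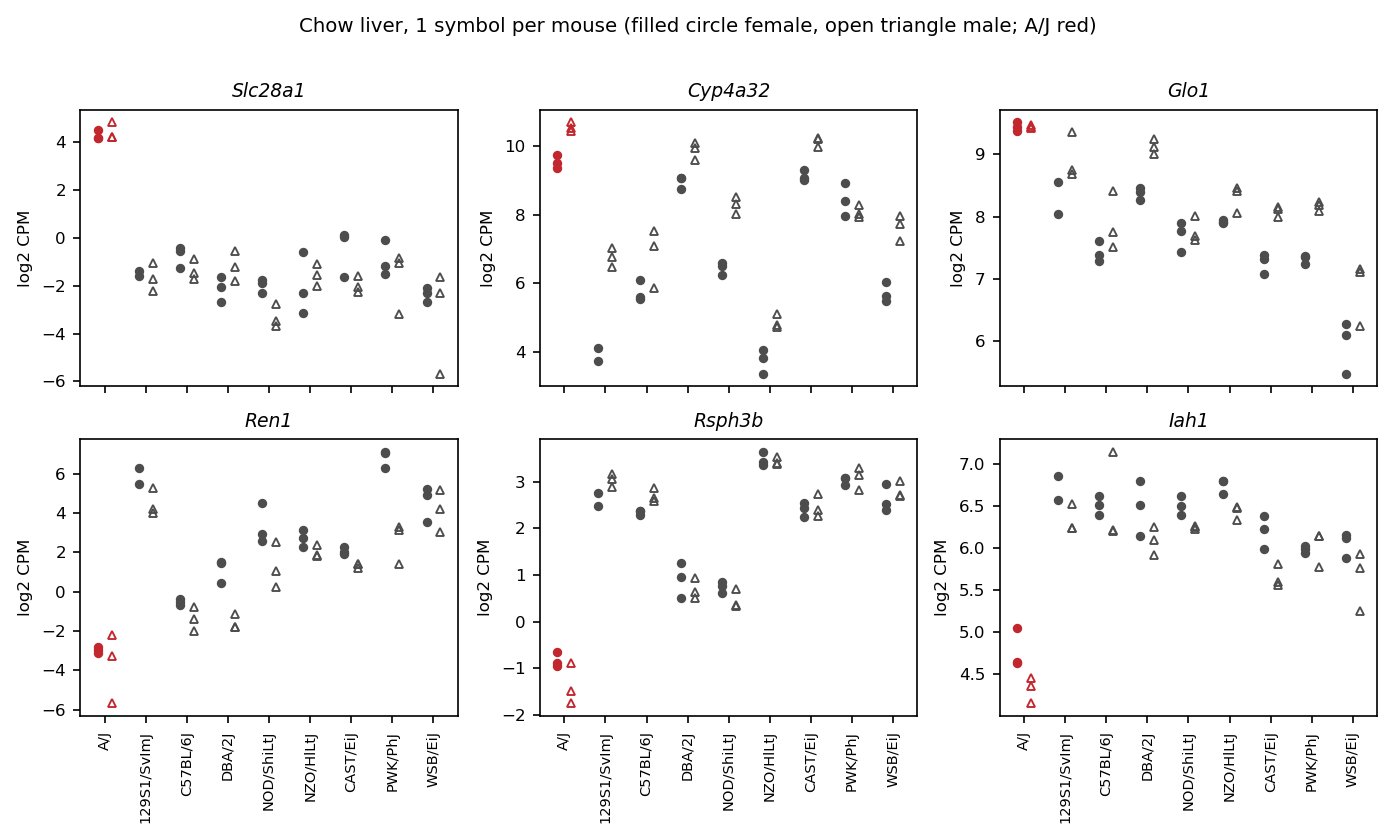
Level of 6 set-apart genes in each chow liver (y axis, log2 CPM) by strain (x axis), with 1 symbol per mouse, filled circles for females, open triangles for males and A/J in red. Slc28a1, Cyp4a32 and Glo1 were above, and Ren1, Rsph3b and Iah1 below, all other mice of the same sex. The margin was wide for Slc28a1 and narrow for Cyp4a32, for Glo1 and, in males, for Ren1.

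Set-apart genes lay near each other in 7 runs that together held 16 of the 83 genes, counting genes no more than 1000 kb apart. The run on chromosome 10 held Inhbc, a subunit of activin C made by hepatocytes (log2 1.34), Hsd17b6 (1.80) and Gls2, the liver glutaminase (-1.11), among 27 tested genes. The others included Itgb1bp1, Cpsf3 and Iah1, Btbd9 and Glo1, Abcc3 and Xylt2, P2ry2 and Art2a-ps, and Spdye4c with Gm39929. Of the runs named, those on chromosomes 7 and 10 held genes of both directions.

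In all, 13 genes were called while no A/J library had more than 3 counts of them. The naming rule took 3 with regular symbols, those with the highest mean level elsewhere. Serpina5, the protein C inhibitor, had 0 counts in all 6 A/J livers, and its 8 other strain means were 0.879 ± 0.976 CPM. A floor of 3 counts in an A/J library is 0.0607 CPM, which makes the other strains at least 14.5-fold higher on average. Mup19, a major urinary protein, stood between 0 and 0.0534 CPM in A/J and at 4.45 ± 6.24 elsewhere. Ces2b, a carboxylesterase, was at most 0.0452 CPM in A/J but was also near 0 in several other strains, and the WSB/EiJ mean was lower still. Each of these 3 calls was lost under some setting. Ces2b was not called without CAST/EiJ (adjusted p = 0.115) or without all 3 wild-derived strains (adjusted p = 0.622), nor without any of 5 single libraries (129S1/SvImJ female CD 2, C57BL/6J female CD 1, DBA/2J female CD 3, WSB/EiJ female CD 1 or WSB/EiJ male CD 3). Serpina5 was not called without 129S1/SvImJ male CD 3, nor Mup19 without NOD/ShiLtJ female CD 3. In all 7 of these single-library fits the rest of the group had 0 counts, and the edgeR adjusted p was 1.

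The gene lists describe where such differences gather. Fatty acid oxidation had the largest share of members higher in A/J among the metabolic lists. Of its 46 measured members, 38 were higher and 2 lower, with a median log2 fold change of 0.43, against 20.6% higher, 19.9% lower and -0.01 over all genes. A/J had the highest strain mean for 27 of the 46, against 9.48% of all genes, and the lowest for none. Without TMM the counts were 33 higher and 2 lower, and without the 3 wild-derived strains they were 35 and 3. Only 10 were higher when the difference had to exceed 0.5 on the log2 scale, so most of the differences were small. The same limit left 15 interferon, 13 histocompatibility, 3 lipoprotein and 4 carboxylesterase genes higher, of the 32, 21, 15 and 10 given below, and 15 of 22 amino acid and urea cycle genes lower. The summed level of the list was 50700 to 56310 CPM in A/J females and 58780 to 61150 in A/J males, against 21270 to 56370 and 18870 to 57470 elsewhere. The 6 libraries were thus at the top of the range in females and above it in males.

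**Figure D2:**
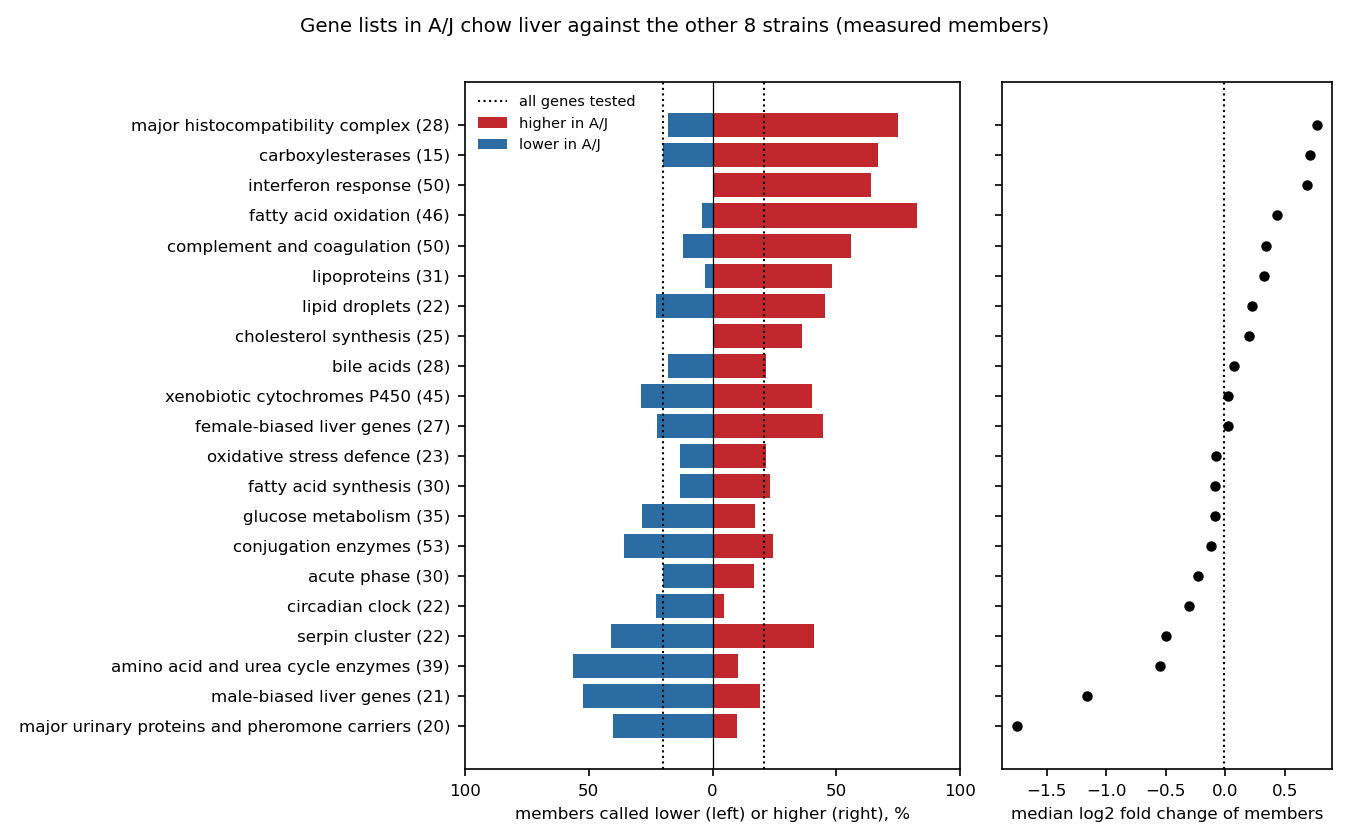
Share of measured members called higher (red, right) or lower (blue, left) in A/J for each list, with the number of members in parentheses, and on the right the median log2 fold change of the members. Dotted lines mark the values of all genes tested (20.6% higher, 19.9% lower, median -0.01); fatty acid oxidation reached 82.6% higher, and amino acid and urea cycle enzymes 56.4% lower.

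The acyl-CoA thioesterases release free fatty acids from coenzyme A. Acot2 was at 123, 173 and 173 CPM in A/J females and 103, 132 and 82.4 in A/J males. The others spanned 10.4 to 143 and 9.06 to 104 CPM, so single mice of other strains overlapped A/J in both sexes. Its log2 fold change was 1.71 ± 0.22 (adjusted p = 3.83e-08, edgeR), and those of Acot3, Acot4 and Acot1 were 1.86, 1.30 and 0.85. These genes are closely similar neighbours on chromosome 12, and reads shared between them cannot be told apart.

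Microsomal omega-hydroxylases were higher for Cyp4a14 (log2 1.23) besides Cyp4a32, and lower for Cyp4a12a (-0.98), a form known to be male-specific. Of the peroxisomal enzymes, Ehhadh was at 3982 ± 359 CPM in A/J and 2450 ± 907 elsewhere (log2 0.91) and Acaa1b at 2771 ± 327 against 1561 ± 460 (0.97). Of mitochondrial enzymes, Cpt1a, the carnitine palmitoyltransferase that gates entry of fatty acids, was higher by 0.32 and Acadvl by 0.20.

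Among regulators and PPARα targets outside the oxidation enzymes, Ppara itself was slightly higher (log2 0.30, adjusted p = 0.0326), although PWK/PhJ had the highest strain mean. Vnn1, a pantetheinase, was at 269 ± 71.5 CPM in A/J and 141 ± 50.4 elsewhere (log2 1.09). Fgf21, a fasting hormone of the liver, was called (1.25, adjusted p = 0.00486), with DBA/2J above A/J. Pdk4, an inhibitor of pyruvate dehydrogenase, ranged from 15.6 to 180.0 CPM among the 6 A/J mice (log2 1.03, adjusted p = 0.0196), NOD/ShiLtJ was above it, and on HFD it was not called (0.05, adjusted p = 0.927). Ppargc1a, a coactivator of these genes, was not called in the contrast averaged over sexes (-0.53, adjusted p = 0.142).

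A direct repeat of the core site bound by PPARα with its partner RXR was searched in RefSeq promoters (GRCm38.p6, the C57BL/6J reference; 250 bases before to 50 after the start) as 2 copies of AGGNCA with any 1 base between them, on both strands. RefSeq promoters were at hand for 33 of the 46 measured members. The motif was present in 1 of their 38 promoters (2.63%), that of Fabp1, the liver fatty acid-binding protein, and in 0.381% of all 32841 promoters. The 250 bases before the Fabp1 start, chr6:71199629-71199878 on the plus strand, are shown because they carry that match, in capitals.
Fabp1: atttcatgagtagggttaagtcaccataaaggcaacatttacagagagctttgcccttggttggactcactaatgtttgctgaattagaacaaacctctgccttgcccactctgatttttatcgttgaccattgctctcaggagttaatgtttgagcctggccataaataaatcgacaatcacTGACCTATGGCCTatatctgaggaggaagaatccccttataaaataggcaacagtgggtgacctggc
Fabp1 was at 3663 to 5629 CPM in A/J and 2921 ± 947 elsewhere (log2 0.82). A match is a description of the letters, and A/J's own sequence was not examined.

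Enzymes of amino acid breakdown and the urea cycle showed the opposite direction. Of 39 measured members, 22 were lower and 4 higher in A/J, with a median log2 fold change of -0.55, and A/J had the lowest strain mean for 13. Without TMM 26 were lower and 1 higher, and without the wild-derived strains 26 and 0. The summed level separated the females: 19500 to 22480 CPM in A/J against 26140 to 65390 elsewhere. A/J males, at 30950 to 37990 CPM, lay within the 23250 to 63420 of other males. In separate tests 23 members were lower in females (13.1% of all genes) and 12 in males (11.5%), and the sex difference itself was called for 1 member.

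In the urea cycle, Cps1, the mitochondrial synthase that starts it, was at 1198, 1099 and 1056 CPM in A/J females and 1350, 1929 and 1423 in A/J males. Others ranged from 1664 to 9300 and from 1465 to 9404, so A/J females were below all others while males overlapped. The log2 fold change was -1.52 ± 0.16 (adjusted p = 3.71e-10, edgeR). Asl, which splits argininosuccinate, was at 249 to 325 CPM in A/J females, below the lowest other female at 630, and at 422 to 609 in A/J males, within the 294 to 2230 of other males (log2 -1.55). Ass1, the step before it, had a log2 fold change of -1.18. Otc, the X-linked second step, was at 281 ± 30.0 against 293 ± 80.9 CPM (log2 0.01, adjusted p = 0.981), and Nags, which makes the activator of Cps1, at 70.4 ± 7.26 against 66.5 ± 7.91 (0.09, adjusted p = 0.304).

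For amino acid breakdown, Gls2 was the set-apart member, at 145, 165 and 153 CPM in A/J females and 190, 209 and 164 in A/J males. The lowest other female was at 185 and the lowest other male at 209.6, just above the A/J male at 209.2. Sds, serine dehydratase, was at 59.1 ± 23.5 against 130 ± 37.3 CPM (log2 -1.09), and Got1, the cytosolic aspartate aminotransferase, at 242 ± 91.1 against 758 ± 482 (-1.39). The 4 members higher in A/J were the mitochondrial Got2 (0.37), with A/J the highest strain mean, and Agxt (0.32), Cbs (0.25) and Prodh2 (0.28), for which other strains had higher means. This count of 4 was 1 or 2 without A/J female CD 2 or 3 or any 1 of the A/J males, and 0 without the wild-derived strains. Among biosynthetic members, Asns, asparagine synthetase, was low in A/J at 0.494 ± 0.088 CPM, but the NOD/ShiLtJ mean was lower still (log2 -1.90). The difference in Asns was called in males (-2.85) and not in females (-0.96, adjusted p = 0.162), while its sex contrast, the test of the difference between the sexes, was not called (adjusted p = 0.411).

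**Figure D3:**
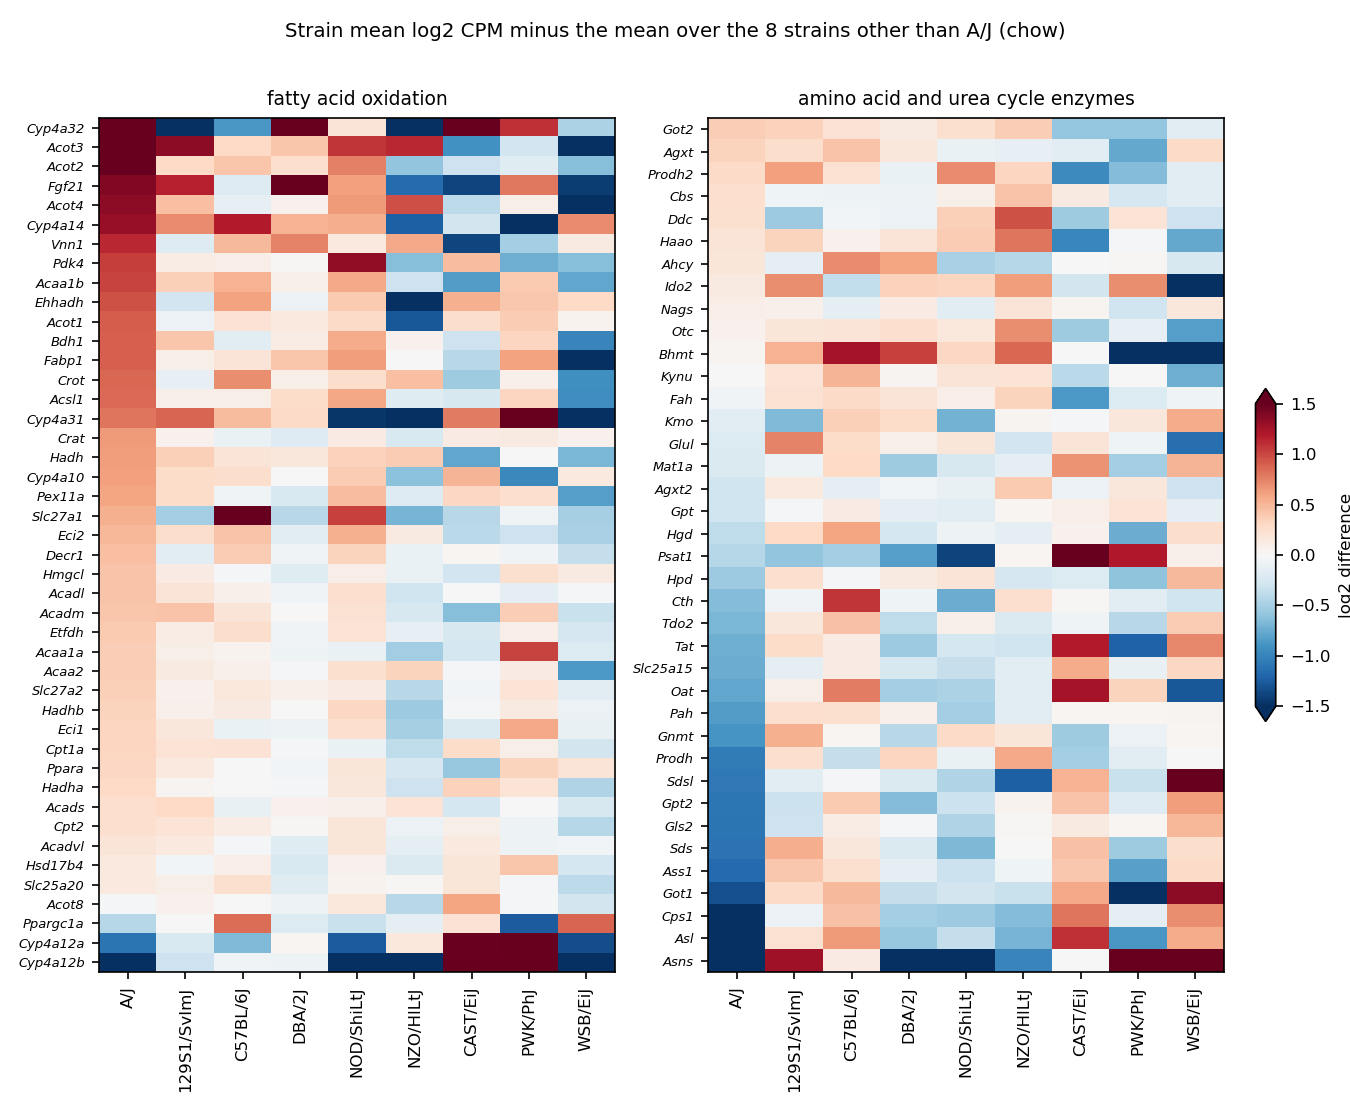
Strain mean level minus the mean over the 8 strains other than A/J (colour, log2 difference, shown between -1.5 and 1.5) for members of both lists (rows) in the 9 strains (columns), with both sexes averaged and rows ordered by A/J. The A/J column was above the mean for most fatty acid oxidation members and below it for most amino acid and urea cycle members.

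Interferon-response genes formed the third group. Interferon γ drives immunity-related and guanylate-binding GTPases, which act against vacuolar microbes. Of 50 measured members, 32 were higher and none lower, with a median log2 fold change of 0.69, and A/J had the highest strain mean for 11. This count depended on the comparison strains: without CAST/EiJ, PWK/PhJ and WSB/EiJ it was 18 higher and 5 lower. A/J female CD 2 was the highest of the 6 for each of the GTPase genes below, and without it 27 members were higher. The summed level of the list was 1133 to 2090 CPM in A/J females and 1051 to 1486 in A/J males, within or just above the 308 to 1877 and 383 to 2366 of the others. Among the others, DBA/2J had the highest mean sum in both sexes.

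Gbp4 was set apart, with 14.1, 30.0 and 13.2 CPM in A/J females and 28.4, 22.2 and 13.9 in A/J males, against at most 9.48 and 8.44 elsewhere. It shares its strand and part of its span with Gbp8 and Gbp9. Igtp was at 53.3, 301 and 47.8 CPM in A/J females and 130, 101 and 57.8 in A/J males, and the others reached 136 and 96.8. The second A/J female and 2 of the A/J males exceeded all others of their sex while the rest did not, so the groups overlapped, and the log2 fold change was 2.16 ± 0.23 (adjusted p = 5.22e-10, edgeR). Gbp10 (log2 4.26) and Tgtp1 (5.32) had larger fitted differences, with 1 and 4 of the 18 groups at the floor of 3 counts, and NZO/HlLtJ followed A/J in both. Tgtp1 ranged from 2.58 to 43.7 CPM in A/J females alone. Without A/J female CD 2 the log2 fold changes were 4.11 for Tgtp1, 1.46 for Igtp and 3.85 for Gbp10, all called. Irf1 (0.91), a transcription factor of the pathway, was higher, with an A/J mean of 40.5 ± 10.8 CPM against 22.6 ± 6.66.

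Promoters of interferon genes often carry an interferon-stimulated response element (ISRE, searched as 2 copies of GAAA with any 2 bases between them) or an interferon γ-activated site (GAS, searched as TTCNNNGAA), both searched on either strand. RefSeq promoters were at hand for 33 measured members. Of their 39 promoters, 20 (51.3%) held the ISRE letters and 12 (30.8%) the GAS letters, against 3.44% and 8.3% of all promoters. Among the members higher in A/J the shares were 47.8% and 34.8% of 23 promoters. The 250 bases before the starts of Igtp, Irgm2 and Gbp7 are shown because they hold both motifs, which are in capitals and do not overlap. The first 2 share the order and the spacing of 2 bases between GAS and ISRE, and the third has 2 GAS matches and its ISRE on the opposite strand. They lie on the plus strand at chr11:58199306-58199555, chr11:58214727-58214976 and chr3:142530086-142530335.
Igtp: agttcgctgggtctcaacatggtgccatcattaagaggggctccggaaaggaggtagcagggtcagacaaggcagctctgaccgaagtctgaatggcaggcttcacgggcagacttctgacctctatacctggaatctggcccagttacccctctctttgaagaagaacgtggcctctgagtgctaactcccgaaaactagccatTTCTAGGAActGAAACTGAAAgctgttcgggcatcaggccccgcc
Irgm2: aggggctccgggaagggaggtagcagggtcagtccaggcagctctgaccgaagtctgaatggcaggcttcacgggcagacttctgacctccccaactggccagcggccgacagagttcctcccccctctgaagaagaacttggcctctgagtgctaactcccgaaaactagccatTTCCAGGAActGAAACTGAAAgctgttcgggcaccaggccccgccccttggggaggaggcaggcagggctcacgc
Gbp7: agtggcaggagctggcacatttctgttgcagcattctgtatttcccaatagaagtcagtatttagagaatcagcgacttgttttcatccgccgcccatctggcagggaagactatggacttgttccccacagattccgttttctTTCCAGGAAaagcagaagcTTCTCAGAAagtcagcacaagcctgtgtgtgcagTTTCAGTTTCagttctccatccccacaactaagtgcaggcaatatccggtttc
Irgm2, at 69.3, 216 and 53.6 CPM in A/J females and 150, 105.3 and 73.4 in A/J males, was higher by 1.74 on the log2 scale, but its annotated span overlaps that of Igtp on the same strand.

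Antigen presentation genes of the major histocompatibility complex differed in both directions. Of 28 measured members, 21 were higher and 5 lower, with a median of 0.77, while 2 were not called. H2-T10, annotated as a polymorphic pseudogene, was at 48.5 ± 11.1 CPM in A/J and 12.2 ± 12.8 elsewhere (log2 2.50). H2-T23, a nonclassical class I gene, was at 54.8 ± 9.72 against 211 ± 91.6 CPM (-1.74), and NOD/ShiLtJ was lower still. H2-Ea-ps, annotated as a pseudogene in C57BL/6J and known as a working class II gene in other strains, was at 28.3 to 82.8 CPM in A/J and in single mice of other strains up to 71.4 (5.28). These genes differ in sequence and number between strains, so their counts against 1 reference genome are uncertain.

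Markers of immune cells moved in the same direction as the interferon list. Of 19 measured markers of Kupffer cells and macrophages, 14 were higher and none lower (median 0.74), but only 6 were higher and 1 lower without the wild-derived strains. Their summed level was 717 to 1138 CPM in A/J females, with 1 of 3 above the 282 to 759 of other females, and 595 to 825 in A/J males, within 262 to 1615. Timd4 was at 15.6 ± 3.77 against 5.91 ± 2.53 CPM (log2 1.56), Csf1r at 91.8 ± 21.3 against 51.6 ± 18.6 (0.93) and Clec4f, a receptor of Kupffer cells, at 167 ± 35.1 against 97.9 ± 30.2 (0.83). All 9 measured T and NK cell markers were higher (median 1.03), and their sum was 13.4 to 19.0 CPM in A/J females against 1.63 to 13.7, with an overlap of groups. In A/J males it was 6.97, 7.17 and 16.2 CPM against 1.53 to 10.6, so 2 of 3 lay inside the range of the others. Of 13 markers of B and plasma cells 10 were higher (median 1.24), while their sum, led by abundant members, did not stand out (188 to 243 CPM in A/J females against 148 to 317, and 207 to 230.4 in A/J males against 165.5 to 515). Of 10 granulocyte markers edgeR, DESeq2 and limma each called 0 in the contrast averaged over sexes, and 0 had an unadjusted p under 0.05 in edgeR, although 3 were higher in the test of females alone. Without NZO/HlLtJ 4 were higher, and without NZO/HlLtJ male CD 2 alone 2 were. The highest granulocyte sum in males of strains other than A/J was 275 CPM, where their median was 1.73. NZO/HlLtJ had the highest mean sum among these males. No marker of these 4 lists was at 0 in all A/J mice. The part of these cells in the interferon and histocompatibility differences was not tested.

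**Figure D4:**
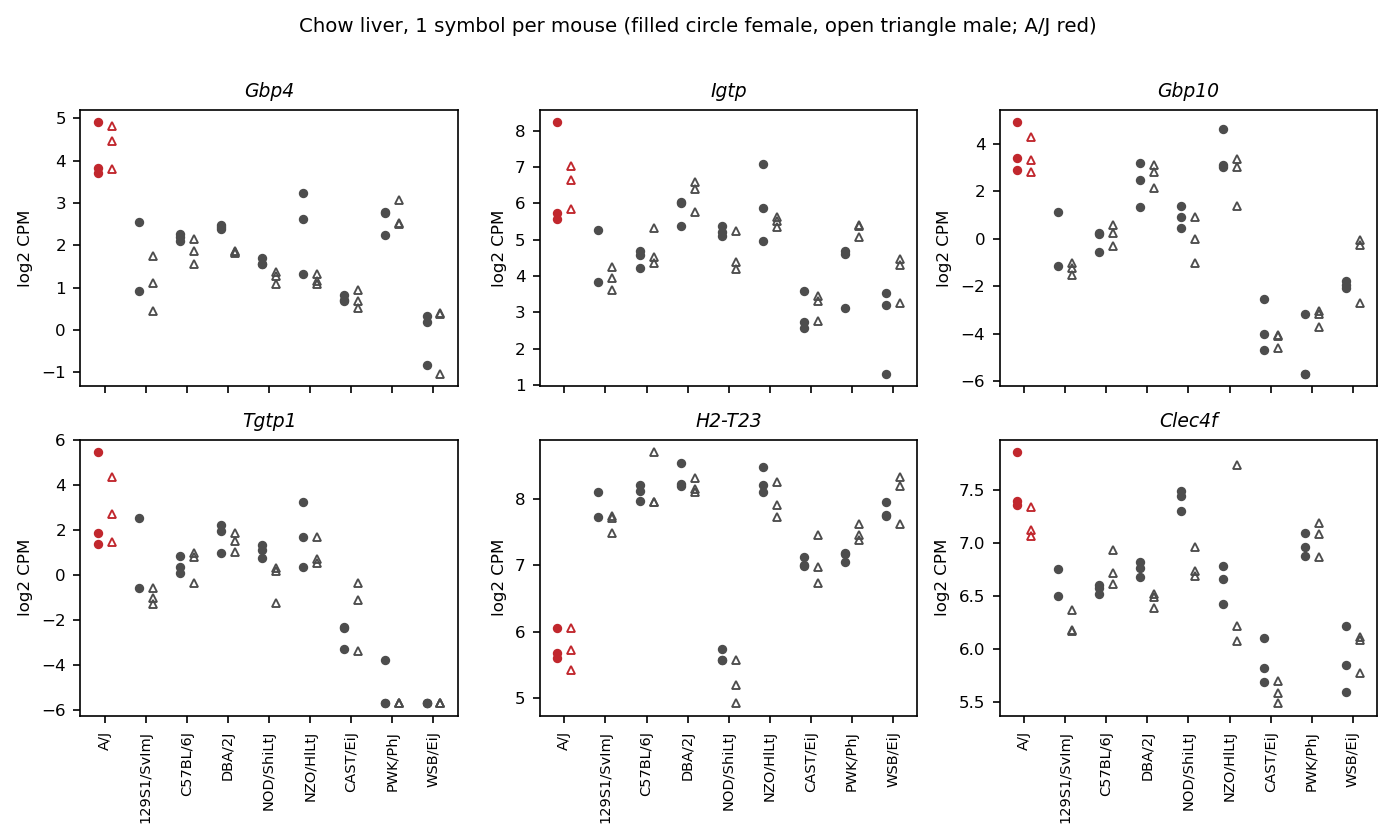
Level of 5 interferon and histocompatibility genes and of the Kupffer cell marker Clec4f in each chow liver (y axis, log2 CPM) by strain (x axis), drawn as in the plot of set-apart genes. A/J was separate from all other strains for Gbp4, overlapped DBA/2J or NZO/HlLtJ for Igtp, Gbp10 and Tgtp1, and was among the low strains for H2-T23.

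Of 24 stellate cell and matrix markers 4 were higher and 5 lower (16.7% and 20.8%, against 20.6% and 19.9% of all genes). Of 19 endothelial markers 7 were higher and 5 lower (36.8% and 26.3%). Without A/J female CD 1, A/J female CD 2 or A/J male CD 2 only 2 stellate markers were higher, and without A/J female CD 1 or A/J male CD 1 only 3 endothelial markers were lower. Without TMM 1 stellate marker was higher and 7 lower, and 4 endothelial markers were higher and 6 lower. Lyve1, a hyaluronan receptor of sinusoidal endothelium, was at 5.09 ± 0.90 CPM in A/J against 21.3 ± 17.4 (log2 -1.60), while Ehd3 and Clec4g, both of the same cells, were higher by 0.61 and 0.52. Of 8 bile duct markers 1 was higher, and so was 1 of 6 erythroid markers and the only measured marker of exocrine pancreas, Cela1 (12.8 ± 3.89 against 8.41 ± 4.33 CPM), in which DBA/2J was above A/J. The erythroid count was 3 without NZO/HlLtJ male CD 2, 2 without any of 6 other single libraries and 0 without the wild-derived strains. The bile duct count was 2 without 129S1/SvImJ female CD 3. Of 6 adipose markers 2 were higher and 2 lower, and of 16 proliferation markers 2 and 3 (12.5% and 18.8%). Of the 15 hepatocyte markers 5 were higher and 4 lower, while their sum was above that of all other males in the A/J males, as given above.

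Among secreted plasma proteins, 28 of 50 complement and coagulation genes were higher and 6 lower, with a median of 0.34 and the highest strain mean in A/J for 15. Without the wild-derived strains 19 were higher and 8 lower, and 4 were higher and 4 lower when the difference had to exceed 0.5 on the log2 scale. Hc, which encodes complement C5, was at 156 ± 27.7 CPM against 493 ± 206 (log2 -1.49, adjusted p = 1.21e-12, edgeR). A/J females overlapped other females, while the 3 A/J males, at 128 to 140.1 CPM, were below all other males (149 to 1388). C6, the next component of the membrane attack complex, was at 11.01 to 16.1 CPM in A/J females, inside the 7.53 to 97.7 of others, but at 41.2 to 72.0 in A/J males, below all other males (76.2 to 1482). Its log2 fold change was -1.495 and its sex contrast was called. C4a, C1s2 and C1rb were higher by 1.69, 2.79 and 3.02, but each has a close copy in the genome and another strain with a higher mean.

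The serpin cluster, which encodes protease inhibitors of plasma, was split into 9 higher and 9 lower of 22 (median -0.50). Serpina1e was higher by 3.07 and ranged from 415 to 842 CPM in A/J females and 5588 to 9493 in A/J males, with NZO/HlLtJ above A/J. Serpina3k was lower, with a log2 fold change of -1.33, at 1659 to 2110 CPM in A/J females, below the 2224 to 19760 of all other females. A/J males had 7303, 5050 and 5265 CPM, with 1 of 3 inside the 5957 to 15300 of other males, and the sex contrast was called (1.07, adjusted p = 0.0328). Major urinary proteins, pheromone carriers made mainly by male liver, included 8 lower and 2 higher of 20 measured members (median -1.75), with 6 lower in females alone, 13 in males alone, and the sex contrast called for 4. DESeq2 and limma each called 15 lower, and without the wild-derived strains edgeR called 12 lower and 0 higher. Mup17 was at 22.1 to 38.9 CPM in A/J males, below the 52.1 to 6509 of all other males, and Mup20, or darcin, at 24.2 to 62.9 against 1.26 to 11540. In females both genes overlapped the other strains. Members of both families are near-identical copies, so single genes are uncertain. In 212 genes a whole group of libraries had 0 counts, and for 84 of them the edgeR fit gave a p over 0.99 despite a log2 fold change over 1 in size, which leaves members such as Mup15 and Cyp4a12b without a usable test.

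Carboxylesterases, which hydrolyse ester drugs and lipids, had 10 higher and 3 lower of 15 (median 0.71). Their summed level was 8395 to 10050 CPM in A/J females and 8162 to 10210 in A/J males. These ranges overlapped the top of the other strains, 8963 in females and 8913 in males. NZO/HlLtJ had the highest mean sum among the other strains in both sexes. Ces1g was at 225 to 399.7 CPM in A/J against 126 ± 152 (log2 2.18) and Ces1b at 631 ± 119 against 326 ± 199 (1.35). Xenobiotic cytochromes P450 were split, with 18 higher and 13 lower of 45 (median 0.02). Cyp2c39, an oxidase of fatty acids and drugs, was at 1141 to 1273 CPM in A/J females and 460 to 653 in A/J males (log2 2.38). Other females reached 1626 and other males 643.

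Conjugation enzymes leaned to the lower side, with 19 lower and 13 higher of 53 (median -0.12). Without the wild-derived strains this became 28 lower and 6 higher. Nnmt, which methylates nicotinamide and was chosen after its values were seen, was at 1.22, 1.99 and 1.89 CPM in A/J females and 1.53, 2.51 and 0.532 in A/J males. Other females ranged from 8.06 to 728 CPM and were all above A/J, while other males ranged from 1.07 to 445 and overlapped it. The log2 fold change was -5.62 ± 0.62 (adjusted p = 8.88e-10, edgeR). The sulfotransferases Sult3a1 and Sult5a1 were lower, with log2 fold changes of -3.29 and -3.53, and Sult1c2 was higher (1.66). Of the glucuronosyltransferases, Ugt3a2 was at 409.5 ± 22.3 CPM against 219 ± 165 (log2 1.77), and Ugt1a9 (1.43) shares exons with the other genes of its locus. Oxidative stress genes were mostly not called, with 5 higher and 3 lower of 23 (21.7% and 13%, against 20.6% and 19.9% of all genes). Without TMM or without the wild-derived strains 6 were lower.

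Among lipid lists, cholesterol synthesis had 9 of 25 members higher and none lower (median 0.20) in the contrast averaged over sexes. Females alone had 3 higher and 4 lower, and males alone 13 higher and 0 lower, but the sex contrast was called for 1 of the 25. The averaged counts were 4 higher and 2 lower without the wild-derived strains. Hmgcs1 was at 129 ± 15.7 CPM against 68.9 ± 25.4 (log2 1.02), and Sc5d at 238 ± 30.2 against 135 ± 47.1 (0.93). Of 30 fatty acid synthesis genes 7 were higher (23.3%, against 20.6% of all genes) and 4 lower (13.3%, against 19.9%). The counts were 5 and 9 without TMM, and 5 and 9 without the wild-derived strains. Besides Elovl2, the polyunsaturated pathway included Elovl5 (0.89) and Fads2 (0.71), while Elovl3, which elongates saturated fatty acids, was lower (-1.44). Lipid droplet genes had 10 higher and 5 lower of 22. Pparg, at 12.2 ± 3.75 against 6.58 ± 4.87 CPM (1.55), and Cd36, a fatty acid uptake receptor (0.95), were higher but below NZO/HlLtJ, and Cidec, a droplet fusion protein, was lower (-1.61) but not without the wild-derived strains (-0.79, adjusted p = 0.149).

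Of 31 lipoprotein genes 15 were higher and 1 lower (median 0.33), among them Lpl (log2 1.19), Scarb1, the receptor for high-density lipoprotein (0.77), and Lcat, which esterifies plasma cholesterol (0.57). Bile acid genes had 6 higher and 5 lower of 28 (21.4% and 17.9%), near the 20.6% and 19.9% of all genes. Without the wild-derived strains 7 were higher and 9 lower. Cyp7b1, of the alternative synthesis route, was at 14.6 to 17.4 CPM in A/J females and 71.8 to 109 in A/J males, within the range of others in both sexes but with the lowest strain mean (-1.86). Cyp7a1, the rate-limiting enzyme of the classic route, was not called (adjusted p = 0.688). Of 35 glucose genes 6 were higher and 10 lower (17.1% and 28.6%). In females alone there were 2 and 11, where 15.2% and 13.1% of all genes were called higher and lower. In males alone there were 5 and 5, against 12.9% and 11.5% of all genes. The sex contrast was called for 0 glucose genes. Slc37a4, the glucose-6-phosphate transporter, was at 73.1 to 91.8 CPM in A/J females, below the 153 to 783 of all other females, and at 111 to 138 in A/J males against 124 to 726 (-1.34). Acute phase genes had 5 higher and 6 lower of 30 (16.7% and 20%), against 20.6% and 19.9% of all genes. Without any 1 of the 6 A/J libraries, 2 or 3 acute phase genes were higher, and without A/J male CD 3 only 3 were lower. Clock genes had 1 higher and 5 lower of 22 (4.55% and 22.7%). There were 2 lower without A/J male CD 1, 3 without A/J female CD 2 or 3, and 8 without TMM. Females alone had 0 higher and 7 lower, and males alone 1 higher and 0 lower, but the sex contrast was called for 0 of the 22. Killing took place in the morning in all strains.

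The difference between A/J and the other strains was also tested within each sex, where 4055 genes were called in females (28.3%) and 3487 in males (24.3%). The contrast between sexes, which asks whether the male-minus-female difference of A/J departed from the mean of the other strains, was called for 49 genes (0.342%), with 23 higher and 26 lower. At an unadjusted p under 0.05 there were 1103 (7.7%). Leaving out single libraries moved these counts by over 1.5 times: without A/J female CD 1 there were 2684 calls in females and 28 in the contrast between sexes, without A/J male CD 3 there were 2156 calls in males and 28 in that contrast, and the contrast had 31 calls without A/J male CD 2 and 78 without WSB/EiJ male CD 3. Of 21 genes listed as male-biased in liver, 11 were lower and 4 higher in A/J (median -1.16), and of 27 female-biased genes 12 were higher and 6 lower (median 0.02). The sex contrast was called for 5 of the male-biased and 6 of the female-biased members.

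Cyp2b9, a P450 known to be silent in adult male liver, was present in both sexes of A/J, at 447, 567 and 483 CPM in females and 406, 566 and 311 in males. Other males ranged from 0.126 to 58.6 CPM, and other females from 0.0832 to 882. The male-minus-female difference was -0.26 on the log2 scale in A/J, and between -10.2 and 2.24 in the other strains, where 129S1/SvImJ was the one with a positive value and had low levels in both sexes. The contrast was 6.33 ± 0.48 (log2, SE; adjusted p = 6.52e-12, edgeR). Cyp2a4, another female-biased P450, was at 142 to 157 CPM in A/J males and 1152 to 1463 in A/J females. The sexes of A/J differed by -3.12, close to the -3.07 of PWK/PhJ, while the rest reached -9.64, and the contrast was 3.90 ± 0.66.

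Selenbp2, a male-biased gene of the selenium-binding protein family, was at 7 to 8.95 CPM in A/J females and 9.69 to 10.4 in A/J males, with a difference of 0.31 against 2.12 to 6.06 in the other strains. Mup18 was higher in A/J females than males by 2.41 on the log2 scale (male minus female -2.41), inside the range of -2.69 to 6.75 of the other strains. The pseudogene Gm18635 had -1.13 in A/J and 0.58 to 1.53 elsewhere, at levels near 1 CPM.

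**Figure D5:**
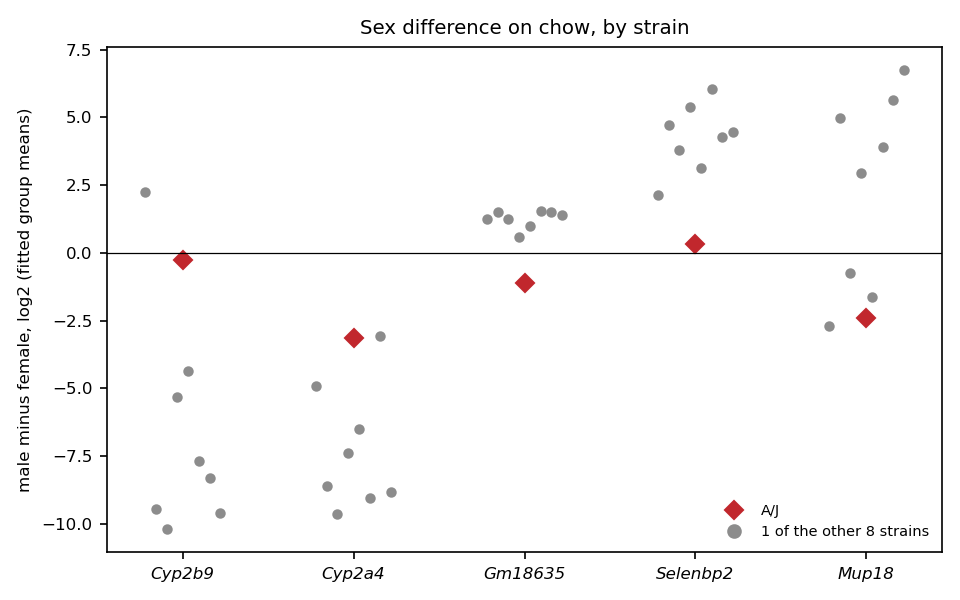
Male minus female difference on chow (y axis, log2) for 5 genes with a called sex contrast (x axis). A/J is shown as red diamonds and the other 8 strains as grey points. Differences are between group means of log2 CPM, which the axis label calls fitted group means. A/J was at -0.26 for Cyp2b9 and 0.31 for Selenbp2, and inside the range of the other strains for Cyp2b9, Cyp2a4 and Mup18.

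Loci known to vary among laboratory strains were listed separately. Of 19 measured, 9 were higher and 7 lower, but 4 were lower without A/J female CD 1. Dysf, which encodes dysferlin and is disrupted in A/J, was set apart at 1.93 ± 0.35 CPM against 6.41 ± 1.88 (log2 -1.67). Alad, the second enzyme of haem synthesis, known to vary in copy number, was at 287 to 379 CPM in A/J, against 16.6 to 377 in other females and 29.1 to 274 in other males (1.38). Lpin1, a phosphatidate phosphatase, was at 15.0 to 52.0 CPM in A/J with 290.5 ± 210 elsewhere (-2.81). Abcc6, a transporter whose loss causes tissue calcification, was higher (0.58) and Ahr, the dioxin receptor, lower (-0.44). In the Naip cluster, which senses bacterial proteins, Naip6 (0.60) and Naip5 (0.41) were higher and Naip2 lower (-0.33, adjusted p = 0.0496), at levels of a few CPM. Each of these 3 calls was lost under some setting. Without the wild-derived strains Naip6 was at 0.16 (adjusted p = 0.473) and Naip5 at 0.02 (adjusted p = 0.908), and without PWK/PhJ alone neither was called. The Naip5 call was also lost without CAST/EiJ or A/J female CD 2, the Ahr call without A/J female CD 1 or A/J male CD 1, and the Naip2 call without C57BL/6J, DBA/2J, NOD/ShiLtJ, NZO/HlLtJ or WSB/EiJ, by limma, with the excluded library kept and in 31 of 53 fits that each left out 1 library, while without the wild-derived strains Naip2 was called at -1.25. Mup1 and Gpnmb were not called, although Gpnmb was lower without A/J female CD 2 (-0.86) and Mup1 higher without 129S1/SvImJ, DBA/2J or NZO/HlLtJ, and the sign of Mup1 turned to -1.15 without the wild-derived strains.

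The same difference was then read in the mice fed HFD, which share no animal with the chow comparison: 6 A/J livers and 46 of the other strains, among them a single NZO/HlLtJ male. On HFD 6375 genes were called (44.5%), 3284 higher (22.9%) and 3091 lower (21.6%). In the same direction on both diets were 4264 genes, which is 73.6% of the chow calls and 66.9% of the HFD calls, and 16 were called in opposite directions. All 83 set-apart genes were called in the same direction on HFD. Of these, 32 were set apart there too, which is 38.6% of the chow genes and 38.1% of the 84 set-apart HFD genes (0.586% of those tested). Their median size was 1.27 on chow and 1.24 on HFD (log2), and 63 were smaller on HFD.

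Slc28a1 was at 18.15 to 32.9 CPM in the A/J HFD livers and at most 1.79 in the others, and Rsph3b at 0.231 to 0.639 against 1.05 to 13.1. Cyp4a32 was set apart on HFD too (log2 3.15), and Nnmt was set apart on HFD alone, at 0.205 to 0.772 CPM against 2.69 to 716. Fatty acid oxidation genes were 38 higher and 2 lower on HFD (median 0.52), and amino acid and urea cycle genes 1 higher and 25 lower (-0.48). Interferon genes were 29 higher and 3 lower (0.55). Other lists had other counts than on chow: clock genes were 10 higher and 4 lower on HFD (median 0.23, against -0.31 on chow), and acute phase genes 4 higher and 14 lower (-0.33, against -0.23). The difference between diets was not tested.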

How the data were processed

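Liver RNA was sequenced from single mice, with SMARTER mRNA-Seq libraries per the labels' protocols. The authors deposited 1 table of read counts per gene and library, and its values were whole numbers. FastQC, STAR and edgeR 3.24.3 are named in the submitters' processing notes. The read counter, genome build, annotation, strand setting and gene filter are not given in the sources used here. The deposited lines for reads without a gene, ambiguous reads and multiple alignments, 25.4% to 27.7% of the reads in A/J and 26.3% to 36.7% in the other chow libraries, were kept out of library sizes and tests.

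All 14330 genes were fitted with edgeR 4.0.16 (R 4.3.3) as 18 strain-by-sex means over 53 chow libraries (35 residual degrees of freedom), with TMM factors (0.837 to 1.13) and a quasi-likelihood test. The contrast set the mean of A/J females and males against the mean of the 8 other strains, and p-values were adjusted by Benjamini-Hochberg over all genes, with a threshold of 0.05. The HFD libraries were fitted alike (34 residual degrees of freedom). Log2 CPM used a prior count of 1. Symbols and positions came from GENCODE M21 (GRCm38), which matched 14321 gene identifiers, and sequences from RefSeq. On simulated counts with 14330 genes, the contrast averaged over sexes found 55% of 100 genes changed by 0.5 on the log2 scale. It found 99% of 100 changed by 1. Of its 161 calls 4.35% were false, against 3.67% of 109 in females and 7.44% of 121 in males, the last above the threshold of 5%. The strains were simulated without any difference before the change, so the spread between real strains was left out. These shares are therefore not error rates of the real A/J comparison.

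Genes were named by a rule: the 10 highest and 10 lowest set-apart genes of at least 1 CPM on the higher side, up to 3 at the A/J floor, 3 with the highest and 3 with the lowest sex contrast, up to 4 per list and all known loci. A few genes that the rule or the lists hold are not reported here. Other genes were named after their values were seen. The strains compared and the lists were chosen with earlier results of these data known. The alternatives were DESeq2 1.42.0, limma 3.58.1, no TMM, a filter under the 25th percentile of mean level, a minimum log2 fold change of 0.5, all libraries in 1 fit, the strain as the unit, the excluded library kept, and leaving out each library, each strain or the 3 wild-derived strains. Tables were handled with Python 3.11.15, pandas 2.3.3 and numpy 2.4.6. Replicate numbers follow accession order and only name a mouse.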

Additional observations from a re-analysis of the deposited data

Results flagged for a closer look

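For 5 named genes the A/J difference itself differed between females and males in the edgeR test of that difference, adjusted over all genes. On the log2 scale the male difference exceeded the female one by 6.33 for Cyp2b9 and 3.90 for Cyp2a4. It was below the female one for Mup18 (-5.00), Selenbp2 (-4.16) and Gm18635 (-2.42). With the strain as the unit none of the 5 passed in limma, which called 0 genes in this contrast and 243 at an unadjusted p under 0.05. DESeq2 called 103 genes in the contrast between sexes and limma over mice 81.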

How the results depend on the processing

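No paired analysis was possible because the labels give no replicate numbers. With a minimum log2 fold change of 0.5, calls were 1438 on chow, 1198 in females, 1008 in males, 20 between sexes and 1531 on HFD. With the strain as the unit, limma called 1, 1, 0, 0 and 0 (315, 296, 293, 243 and 337 at an unadjusted p under 0.05). The contrast between sexes had 49 calls in the reported fit, but 86 with all libraries in 1 fit, 103 by DESeq2, 81 by limma, 24 with the excluded library and 86 without WSB/EiJ. Set-apart genes numbered 142 without NZO/HlLtJ and 211 without the wild-derived strains, where fewer mice have to be exceeded. Leaving out 1 library gave 5018 to 6063 calls on chow, 2684 to 4375 in females, 2156 to 3767 in males, 28 to 78 between sexes, 5541 to 6835 on HFD and 82 to 100 set-apart genes. Without TMM the share of calls higher in A/J was 33.3% on chow, 41.5% in females, 29.1% in males, 32.8% between sexes and 30.3% on HFD, and 21 of 81 set-apart genes were higher. Without the wild-derived strains Lum changed sign, to -0.29, and Mup1, to -1.15, and the cause was not tested. Of 156 named genes (127 under the 25th percentile filter, all of which kept their call), the strain as the unit kept the call of 5 and lost that of 151. DESeq2 kept the direction and call of 156, limma and the fit without TMM of 155, the fit without the wild-derived strains of 140 and the minimum fold of 120. Calls of Ahr, Bhlhe40, Ces2b, Col14a1, Ide, Lum, Mup19, Naip2, Naip5 and Serpina5 were lost without some single library. Of 20 major urinary protein genes 8 were lower by edgeR and 15 by DESeq2 or limma. On simulated counts, in which the other strains did not differ, 18% of genes changed by 0.5 on the log2 scale were found in females. In males 21% were found, and 7.44% of calls were false.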
